A study of Rattus norvegicus with 47 samples.

Results

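The livers described here came from vitamin A-deficient rats killed 10 h after a dose of all-trans-retinoic acid (RA), and were compared with livers of vitamin A-deficient rats that received vehicle and were killed at 0 h. The samples were chosen by their titles, which gave 4 arrays at 10 h and 3 vehicle arrays, or 7 of the 47 arrays of the series. All 7 rats were female Sprague-Dawley rats of 8 weeks, born to dams on a vitamin A-deficient purified diet and fed it themselves after weaning. The dose was about 100 µg of RA, and each array held the liver RNA of 1 rat. The titles call the vehicle rats untreated, while the treatment notes state vehicle. No vehicle rats were killed at 10 h, so that RA cannot be told apart from the hour of killing, the feeding before it or any other difference between 0 h and 10 h. The other 9 arrays of the same time course (3 each at 3, 6 and 16 h after RA) shared the estimate of spread and served to place the 10 h values. The diet experiment of the series, with other female rats of the same strain and age given 4 mg or 0 mg of retinol per kg of diet, served as a separate comparison.

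RA is the acid form of vitamin A and binds the RA receptors, which sit on DNA with retinoid X receptors and raise transcription of their target genes when RA is bound. Among the best known targets are genes that hold RA in check: Cyp26a1 and Cyp26b1, whose enzymes oxidise RA, Lrat, whose enzyme stores retinol as esters, and Dhrs3, whose enzyme reduces retinaldehyde to retinol. The receptor gene Rarb is a target of its own product. Liver is the main store of vitamin A and also the organ that makes bile acids, fatty acids, cholesterol and glucose for the body.

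The classical binding site of the receptor pair is a direct repeat of the receptor hexamer with 5 bases between the copies (DR5) or 2 (DR2). Both strands of the RefSeq promoter windows of GRCr8 were searched, each 300 bases long, from 250 bases before the start site to 50 after it. A DR5 lay in 88 of 24206 promoters (0.364%) and a DR2 in 37 (0.153%); among the 10539 genes tested that had a window, 7 held a DR5 (0.0664%) and 9 a DR2 (0.0854%). Among the genes called higher at 10 h, 15 of 19 had a promoter window, and 1 of them held a DR5, which was Cyp26a1. Of the 76 genes called lower, 63 had a window, and none held a DR5 or DR2. Rarb also held a DR5. These promoters are shown because they hold the repeat; capitals mark it.

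Cyp26a1, chr1:244883572-244883871, plus strand: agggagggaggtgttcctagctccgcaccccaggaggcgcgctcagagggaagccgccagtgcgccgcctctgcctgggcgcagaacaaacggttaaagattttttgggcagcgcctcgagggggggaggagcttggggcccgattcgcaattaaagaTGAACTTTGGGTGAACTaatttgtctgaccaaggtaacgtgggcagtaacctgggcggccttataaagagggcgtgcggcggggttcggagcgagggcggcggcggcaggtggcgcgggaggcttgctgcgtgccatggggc

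Rarb, chr15:11336142-11336441, plus strand: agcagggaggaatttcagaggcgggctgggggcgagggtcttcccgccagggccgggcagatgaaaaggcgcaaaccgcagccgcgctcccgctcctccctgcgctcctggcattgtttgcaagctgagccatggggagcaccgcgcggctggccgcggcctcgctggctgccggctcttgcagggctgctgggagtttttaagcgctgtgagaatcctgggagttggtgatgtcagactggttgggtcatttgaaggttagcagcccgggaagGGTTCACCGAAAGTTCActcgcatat

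The Cyp26a1 repeat began 92 bases before the start site and the Rarb repeat 24 bases after it. The E-box CACGTG, the letters bound by clock factors, lay in 1631 of 24206 promoters (6.74%), in 972 of the 10539 tested genes with a window (9.22%), in 1 of 15 promoters of genes called higher, in 6 of 63 of genes called lower (9.52%) and in 3 of 14 of core clock genes (21.4%). These matches describe the letters of the window and were not tested.

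Values are log2 signals relative to the median of their array, and ± marks the standard error (SE) of a difference or the standard deviation (SD) of a group mean. The median signal lay 47.5 to 53.6 times above the lowest value of the array at 10 h and 37.9 to 54.6 times in the vehicle group. Albumin (Alb), the defining transcript of hepatocytes, lay at 9.18 in the vehicle mean and 9.44 at 10 h. Vehicle replicate 1 stood apart in its signal of the GAPDH control probe sets, with the 3' set 0.947 above the 5' set, against 0.437 and 0.454 in the other vehicle arrays and 0.358 to 0.53 at 10 h. Other measures set vehicle replicates 2 and 3 apart instead. In the actin control sets the same difference was 1.715 and 1.936 in them, 2.462 in replicate 1 and 2.106 to 2.646 at 10 h. Probe sets at the lowest value numbered 403 in each of them, 57 in replicate 1 and 34 to 96 at 10 h. Vehicle replicate 2 stood apart in genes of retinoid supply: it lay at 2.62 for Lrat and 7.11 for Cyp2c22, where the other vehicle arrays lay at or below -0.39 and 2.83. Precision is limited by there being 3 or 4 rats a group, and values without single arrays are given where they moved a result.

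At 10 h, a short list of retinoid and other transcripts stood far above vehicle, while a longer list, led by the bile acid enzyme Cyp8b1, stood below. Of 28869 probe sets tested, limma called 141 (0.488%), with a Benjamini-Hochberg adjusted p below 0.05 taken as a call, 31 higher (0.107%) and 110 lower (0.381%). Among 13662 named genes, 95 were called (0.695%), 19 higher (0.139%) and 76 lower (0.556%). All 10 h arrays lay above all vehicle arrays for 287 genes (2.1%) and below them for 1315 (9.63%). The median difference over all named genes was -0.23, so a gene with that value moved with the rest. Quantile normalization brought this median to -0.03 and gave 290 calls, 168 higher and 122 lower, which moved the share of higher calls from 22.0% to 57.9%. The number of calls depended on single arrays: it was 19 without vehicle replicate 3, 378 without vehicle replicate 1, and 69, 66 and 79 without 10 h replicates 2, 3 and 4. Without vehicle replicate 2 it was 115, of which 61 were higher. Without the intensity trend in the variance estimate, 2 probe sets were called, both lower, and Cyp8b1 was 1 of them.

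**Figure D1:**
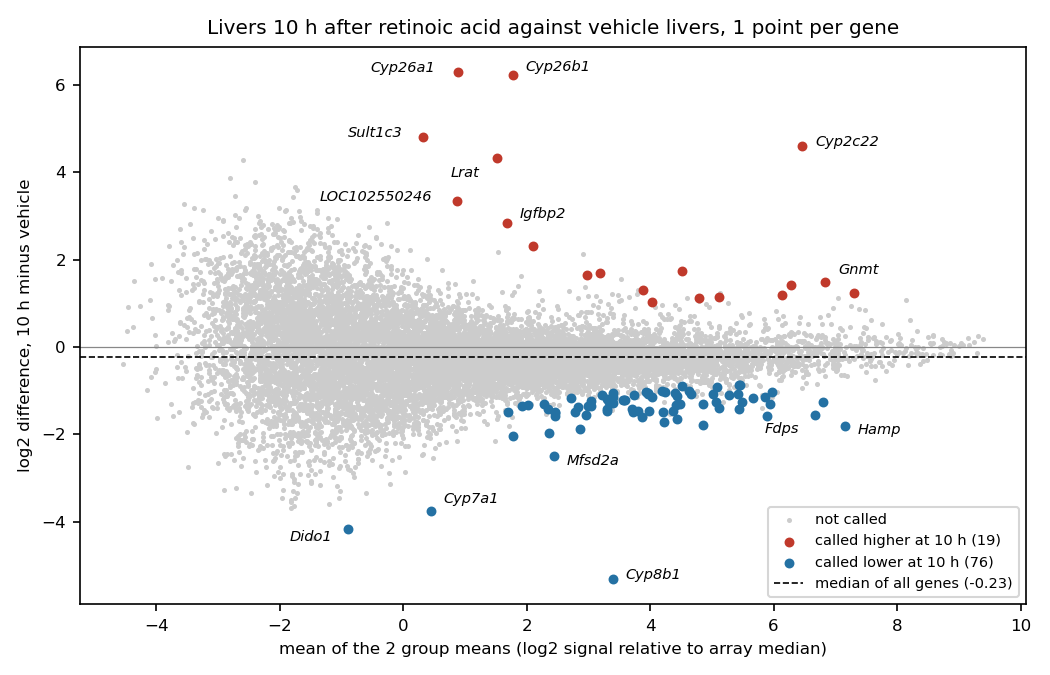
Each point is 1 named gene: the horizontal axis gives the mean of the 10 h and vehicle group means and the vertical axis the log2 difference of 10 h minus vehicle. The 19 genes called higher (red) reach 6.29, the 76 called lower (blue) reach -5.31, and the dashed line marks the median of all genes at -0.23.

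Of the 58 genes chosen to be named at 10 h, 51 were called, and 15 of these stayed called when each of the 7 arrays was left out in turn. These 15 were Cyp26a1, Cyp26b1, Cyp2c22, Lrat, Igfbp2, Rpp21, Lcmt1 and LOC102550246 among the rises, and Cyp8b1, Mfsd2a, Hamp, Tp53inp2, Mgat2, Fdps and Fads1 among the falls. Leaving out vehicle replicate 3 ended 36 of the 51 calls, more than any other single array.

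The retinoid genes that rose were those that oxidise or store retinoids. Cyp26a1, the main RA hydroxylase of liver, measured 3.40, 5.44, 3.90 and 3.41 in the 10 h livers and -0.89, -1.14 and -4.73 in the vehicle livers. The groups did not overlap, and the difference was 6.29 ± 0.88 (adjusted p = 0.00024). Its paralog Cyp26b1 measured 4.65, 5.38, 4.72 and 4.85 at 10 h against -4.57, 0.84 and -0.28, a difference of 6.23 ± 0.74 (adjusted p = 2.93e-05). Both calls held without each array, but the sizes moved: Cyp26a1 differed by 5.05 without vehicle replicate 3 and 6.97 without replicate 1, and Cyp26b1 by 4.62 without vehicle replicate 1 and 7.32 without replicate 2. A second Cyp26b1 probe set differed by 2.39 and was not called. All vehicle signals of both genes but 1 lay below the array median, where the size of a log2 difference is least certain: with 0.25 of the array median added to every signal, the differences were 4.95 and 5.13.

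Lrat, the enzyme that esterifies retinol, measured 3.95, 3.44, 3.60 and 3.72 at 10 h, a tight group, against -0.39, 2.62 and -4.18. The difference was 4.32 ± 0.77 (adjusted p = 0.00439), and it was 5.96 without vehicle replicate 2 and 2.56 without vehicle replicate 3. Cyp2c22, a liver P450 that hydroxylates RA, measured 8.69, 8.67, 8.88 and 8.86 against 2.54, 7.11 and 2.83. It rose by 4.61 ± 0.56 (adjusted p = 2.93e-05), or by 3.80, 6.09 and 3.95 without vehicle replicates 1, 2 and 3. The main value corresponds to 24.5-fold, and the 10 h arrays lay within a narrow band above every vehicle array.

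Both other classical targets missed the threshold at 10 h. Dhrs3 measured 5.05, 4.98, 4.72 and 4.87 against 3.46, 4.45 and 4.17, with a difference of 0.88 ± 0.23 (adjusted p = 0.0962) and no overlap. It passed under quantile normalization (1.14, adjusted p = 8.16e-05) and without vehicle replicate 2 (1.09, adjusted p = 0.0443), while it was 0.60 (adjusted p = 0.242) without vehicle replicate 1. Rarb, whose promoter holds the DR5 shown above, measured 4.57, 3.81, 3.72 and 4.33 against 3.25, 4.32 and 3.52. The groups overlapped and the difference was 0.41 ± 0.27 (adjusted p = 0.685). Cyp3a9, a P450 that follows vitamin A status in rat liver, differed by 1.19 ± 0.39 (adjusted p = 0.219), by 1.72 (adjusted p = 0.0408) without vehicle replicate 2 and by 0.50 (adjusted p = 0.606) without vehicle replicate 1.

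Of 19 RA receptor target genes tested, 3 were called higher (Cyp26a1, Cyp26b1 and Lrat) and 0 lower, beside 0.139% of all named genes called higher. The list had a median of 0.27 against -0.23 over all genes. The list median was -0.11 without 10 h replicate 4. Without vehicle replicate 1 it was 0.05, and 5 members were called, 3 higher and 2 lower. Of 32 genes of retinoid transport and metabolism, 1 was called, Cyp2c22, beside 0.695% of all named genes. The median of these 32 was -0.18. The plasma carrier gene Rbp4 differed by -0.18 and its partner Ttr by 0.09, neither called. Rxra, a partner of the RA receptors, differed by -2.52 ± 0.64 (adjusted p = 0.072).

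**Figure D2:**
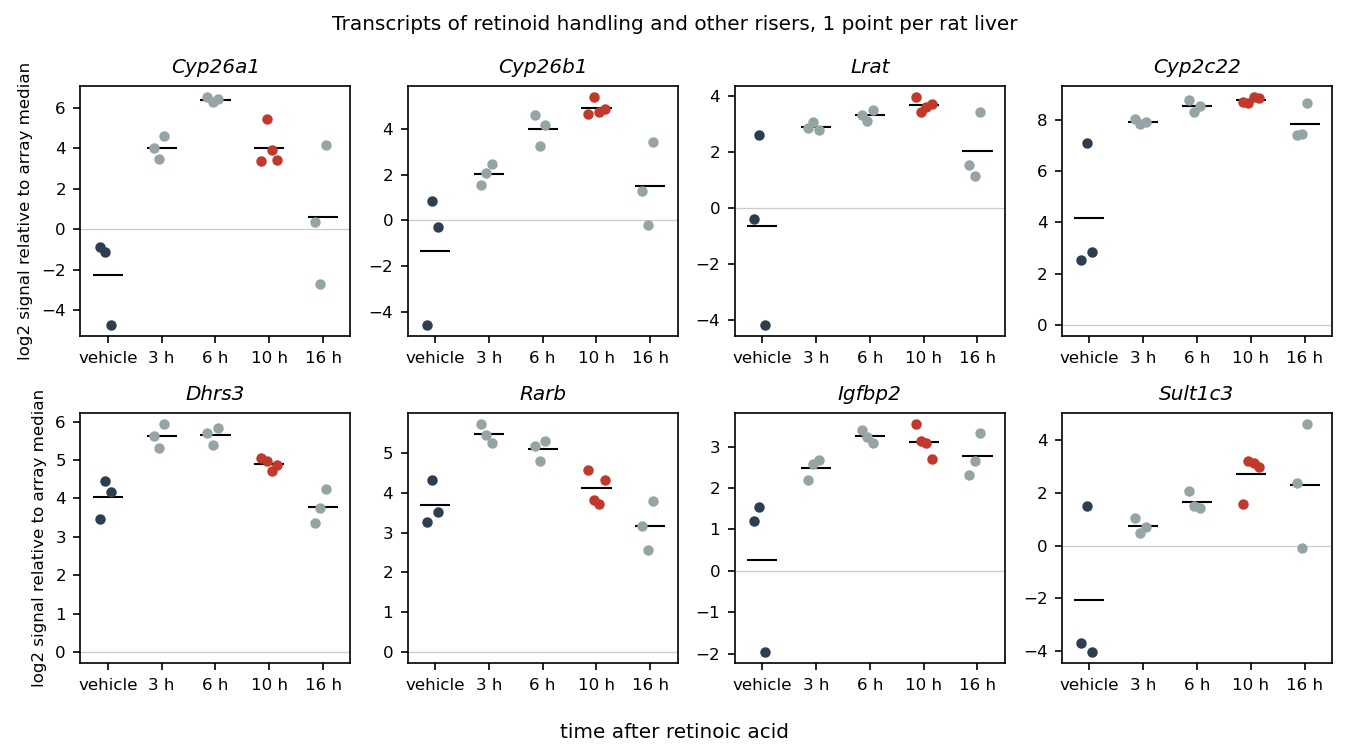
Each point is 1 rat liver; the vertical axis gives the log2 signal relative to the array median, the horizontal axis the group, and the bar the group mean. The 10 h livers (red) lie above all vehicle livers (dark) for Cyp26a1, Cyp26b1, Lrat, Cyp2c22, Dhrs3, Igfbp2 and Sult1c3, and overlap them for Rarb; vehicle replicate 2 is the highest vehicle point of Cyp26b1, Lrat, Cyp2c22, Dhrs3, Rarb, Igfbp2 and Sult1c3.

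Beyond the retinoid lists, the rises were led by Sult1c3, a cytosolic sulfotransferase. It measured 1.57, 3.21, 3.12 and 3.00 against -3.70, 1.49 and -4.05, a difference of 4.81 ± 0.88 (adjusted p = 0.00585), or 4.01, 6.60 and 3.83 without vehicle replicates 1, 2 and 3. Vehicle replicate 2, at 1.49, lay just under the lowest 10 h array, at 1.57. The call was lost without vehicle replicate 3. Igfbp2, a carrier of insulin-like growth factors, measured 3.54, 3.14, 3.08 and 2.70 against 1.21, 1.55 and -1.96, and rose by 2.85 ± 0.48 (adjusted p = 0.00262), or by 3.49 without vehicle replicate 2 and 1.74 without replicate 3. The predicted gene LOC102550246 rose by 3.35 ± 0.46 (adjusted p = 0.000175), or by 2.52 without vehicle replicate 1.

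A second group of rises carried enzymes and regulators at higher signal. Gnmt, which uses up methyl groups by methylating glycine and is a known RA-responsive liver gene, measured 7.50, 7.86, 7.47 and 7.51 against 5.90, 6.73 and 5.66 and rose by 1.49 ± 0.28 (adjusted p = 0.0063). Lcmt1, the methyltransferase of protein phosphatase 2A, measured 4.48, 4.49, 4.43 and 4.72 against 3.26, 3.36 and 3.07. It rose by 1.30 ± 0.20 (adjusted p = 0.00108), and no vehicle array came near the 10 h range. Other rises were Adss1, an enzyme of AMP synthesis (2.31), Rpp21, a subunit of ribonuclease P (1.73), Rab38, a vesicle GTPase (1.69), RGD1309362 (1.65), the flavin monooxygenase Fmo5 (1.42), the enoyl-CoA isomerase Eci3 (1.23) and the vasopressin receptor Avpr1a (1.14).

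In these rises too, vehicle replicate 2 lay toward the 10 h group. It was the highest vehicle array for Adss1 (2.52 against 0.77 and -0.44), Rpp21 (4.62 against 3.10 and 3.24), Rab38 (3.54 against 1.09 and 2.41), Fmo5 (6.67 against 5.20 and 4.83), Eci3 (7.38 against 6.24 and 6.44) and Avpr1a (5.43 against 3.98 and 4.22). RGD1309362 did not show this, at 1.97 against 2.32 and 2.17. Without that array the differences of Adss1, Rpp21, Rab38, Fmo5, Eci3 and Avpr1a were 3.09, 2.21, 2.29, 1.98, 1.58 and 1.59, all called. Without vehicle replicate 3 the difference of Adss1 was 1.61 and not called. A second Adss1 probe set differed by 1.13 and was not called. Without vehicle replicate 1 the difference of Rab38 was 1.06 (adjusted p = 0.204), and the calls of Rab38, Fmo5 and Avpr1a were lost on leaving out any array other than vehicle replicate 2. Why the array differed was not tested.

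Bile acid synthesis held the largest fall. Cyp8b1, the sterol hydroxylase that sets the share of cholic acid, measured 0.62, 0.94, 0.83 and 0.58 at 10 h against 6.24, 4.67 and 7.26 in the vehicle livers. Its difference of -5.31 ± 0.36 (adjusted p = 9.27e-11) was 39.7-fold, and it was -6.01 without vehicle replicate 2 and -4.71 without replicate 3. The 10 h arrays lay within a narrow band below every vehicle array. Of the 58 genes chosen to be named, Cyp8b1 was the 1 called under all 16 alternatives tried. Cyp7a1, the rate-limiting enzyme of the pathway, measured -1.23, -3.51, -1.56 and 0.58 against 0.85, 0.99 and 5.18. The groups did not overlap and the difference was -3.77 ± 0.82 (adjusted p = 0.0246), but vehicle replicate 3 lay far above the other vehicle arrays, and without it the difference was -2.35 (adjusted p = 0.51). The call was also lost without 10 h replicate 2 or 3.

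Abcc2, the canalicular exporter of conjugated anions, measured 5.31, 5.11, 4.79 and 5.14 against 6.29, 5.87 and 6.60, a difference of -1.17 ± 0.22 (adjusted p = 0.00802) with no overlap. In all, 3 of 27 bile acid genes were called lower and 0 higher, beside 0.556% of all named genes called lower. The list median was -0.46. Cyp27a1, which opens the alternative route, differed by -0.20 and the uptake carrier Slc10a1 by 0.06, neither called. The count was 1 without vehicle replicate 3, 1 without 10 h replicate 3 and 5 without vehicle replicate 2, of which 2 were higher and 3 lower. Under quantile normalization 3 members were called higher as well and 3 lower.

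**Figure D3:**
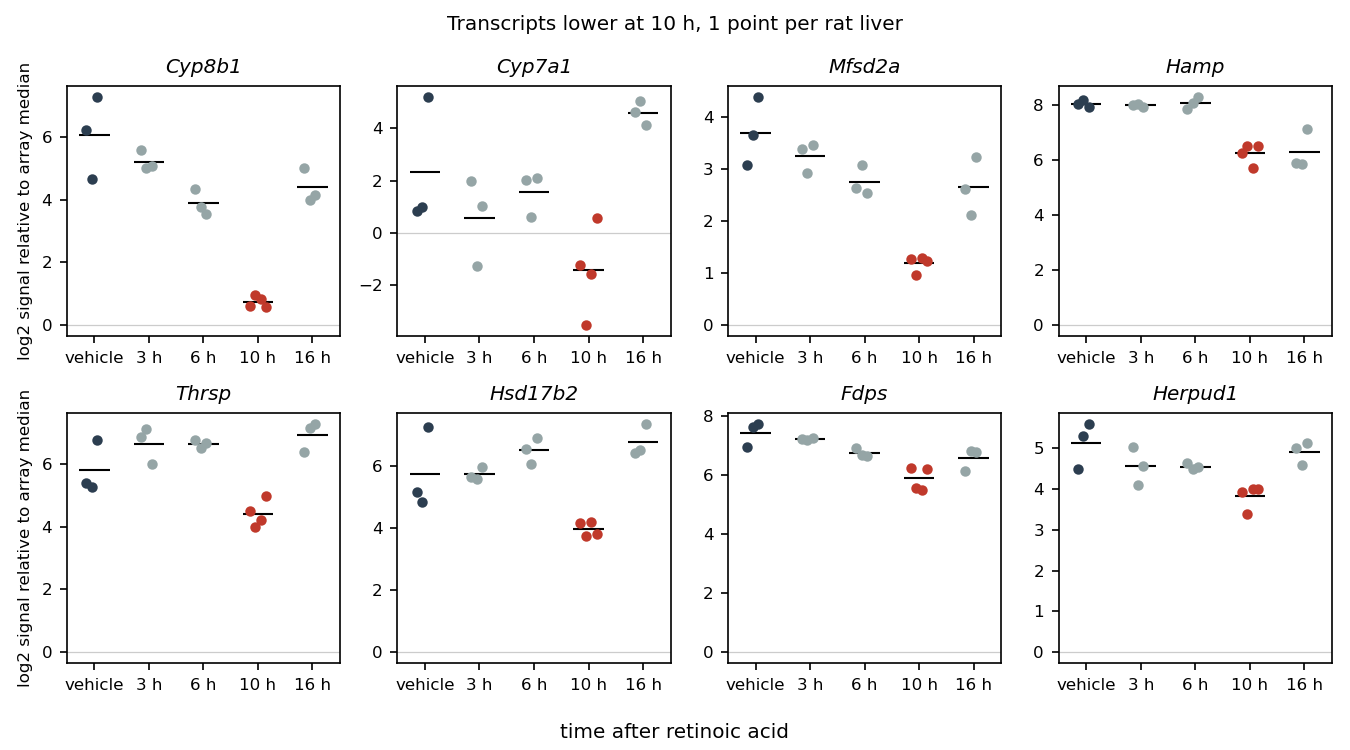
Each point is 1 rat liver; the vertical axis gives the log2 signal relative to the array median, the horizontal axis the group, and the bar the group mean. For Cyp8b1, Cyp7a1, Mfsd2a, Hamp, Thrsp, Hsd17b2, Fdps and Herpud1 all 10 h livers (red) lie below all vehicle livers (dark). The Cyp8b1, Mfsd2a, Thrsp, Hsd17b2 and Herpud1 points at 10 h lie below every other array of the time course.

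Fatty acid synthesis and desaturation held the most calls of any list. Of 30 genes tested, 6 were called lower and 0 higher, beside 0.556% of all named genes called lower. The list median was -0.70. Fads1, the delta-5 desaturase, measured 6.64, 5.80, 6.11 and 6.15 against 7.14, 7.70 and 7.49, a difference of -1.27 ± 0.20 (adjusted p = 0.00162); it was named after its values were seen. Its partner Fads2 differed by -1.27 ± 0.26 (adjusted p = 0.0136), and the elongase Elovl2, which acts on the same polyunsaturated chains, by -1.33 ± 0.31 (adjusted p = 0.0382). Elovl2 measured 3.51 to 3.88 at 10 h against 5.03 to 5.14, and the groups were far apart, but its call was lost on leaving out any of the 7 arrays.

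Thrsp, a lipogenic factor that responds to thyroid hormone and carbohydrate, measured 4.51, 3.99, 4.22 and 4.98 against 5.41, 5.28 and 6.76. It fell by 1.39 ± 0.30 (adjusted p = 0.0206), and all 3 of its probe sets were called, but without vehicle replicate 3 the difference was -0.92 and not called. Lpin1, a phosphatidate phosphatase, fell by 1.38 ± 0.30 (adjusted p = 0.0214) with both of its probe sets called. Me1, the malic enzyme that supplies NADPH, fell by 1.51 ± 0.35 (adjusted p = 0.0382) in 1 of 2 probe sets, and the other differed by -0.84. With the mean over the probe sets of a gene, neither Thrsp nor Me1 was called. Fasn and Scd, core enzymes of the same route, differed by -0.89 and -0.37 and were not called. The list count was 1 without vehicle replicate 3 or 10 h replicate 2, 2 without 10 h replicate 3, and 3 without vehicle replicate 2 or 10 h replicate 4. It was 9 without vehicle replicate 1. Under quantile normalization 5 were called lower and 1 higher.

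In cholesterol synthesis 1 of 20 genes tested was called, beside 0.695% of all named genes. The list median was -0.50, and 19 members had a negative difference, as did 9054 of all 13662 genes. That gene was Fdps, which makes farnesyl diphosphate and was named after its values were seen. It measured 6.26, 5.57, 5.52 and 6.23 against 6.97, 7.64 and 7.73, a difference of -1.55 ± 0.22 (adjusted p = 0.000376). All 10 h arrays lay below all vehicle arrays for 4 of the 20, beside 9.63% of all genes. Cyp51, the sterol demethylase, differed by -0.83 (adjusted p = 0.113).

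Fatty acid oxidation and glucose genes were lower at single points. The median of 39 genes of fatty acid oxidation was -0.26, close to that of all genes. Beside 0.556% of all named genes, 2 of the 39 were called lower. They were Cpt1a, the gate of mitochondrial fatty acid entry, which fell by 1.43 ± 0.27 (adjusted p = 0.0067), and Pdk4, which restrains pyruvate oxidation and fell by 0.86 ± 0.20 (adjusted p = 0.0469). Each was called in 1 of 2 probe sets, and the other differed by -2.16 for Cpt1a and -0.66 for Pdk4. The list count was 0 without vehicle replicate 3 and 1 without vehicle replicate 2 or 10 h replicate 2, 3 or 4. The glucose transporter Slc2a2 and the glucose-6-phosphate transporter Slc37a4, both named after their values were seen, fell by 1.31 ± 0.23 (adjusted p = 0.00394) and 1.47 ± 0.24 (adjusted p = 0.00209), and neither was called without vehicle replicate 3. Of 31 genes of gluconeogenesis and amino acid catabolism, 2 were called lower, the transaminase Got1 (-1.23) and the urea cycle enzyme Asl (-1.07), and 1 higher, Gnmt. Of all named genes 0.556% were called lower and 0.139% higher. The list median was -0.01, and the count was 0 without vehicle replicate 3, 1 without 10 h replicate 3 and 5 without vehicle replicate 1, of which 2 were higher and 3 lower. Under quantile normalization 3 were called higher and 1 lower.

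Hamp, which encodes the iron hormone hepcidin, held its call without each array in turn. It measured 6.26, 6.54, 5.70 and 6.51 against 8.07, 8.20 and 7.93, and fell by 1.81 ± 0.25 (adjusted p = 0.000167). Leaving out single arrays moved the difference between -1.91 and -1.63. It was the 1 called gene of 23 in hepcidin and BMP signalling, whose median was -0.55. Of all named genes 0.695% were called. The BMP targets Id1 and Smad7 differed by -0.54 and -1.06 and were not called.

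Of 25 genes of endoplasmic reticulum stress, which encode chaperones and quality control factors, 4 were called lower and 0 higher. Of all named genes 0.556% were called lower. The list median was -0.56 against -0.23 over all genes. Herpud1, a factor of protein disposal, fell by 1.30 ± 0.25 (adjusted p = 0.00767), from 4.48, 5.31 and 5.59 in the vehicle livers to 3.93, 3.38, 4.01 and 3.99. Edem1, which acts in the same route, fell by 1.15 ± 0.23 (adjusted p = 0.0122), the protein disulfide isomerase Pdia4 by 1.26 ± 0.30 (adjusted p = 0.046) and the chaperone Hsp90b1 by 1.03 ± 0.23 (adjusted p = 0.0339). Edem1 was called in 1 of 3 probe sets, which ranged from -1.15 to -0.69. Hspa5 and Ddit3, the standard readouts of this stress, differed by -0.40 and 0.12 and were not called. None of the 4 calls held without vehicle replicate 3. The count was 1 without 10 h replicate 2 or 3, 2 without 10 h replicate 4 or vehicle replicate 2, 4 without 10 h replicate 1, and 7 without vehicle replicate 1.

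Glucocorticoid-induced genes had the lowest median of the pathway lists, at -0.71. Beside 0.556% of all named genes, 3 of the 24 were called lower, and 0 higher. They were Mfsd2a, a transporter of lysophosphatidylcholine, Lpin1 and the transcription factor Klf9. Mfsd2a measured 1.27, 0.96, 1.29 and 1.23 against 3.07, 3.64 and 4.37, a difference of -2.51 ± 0.30 (adjusted p = 2.93e-05), and each 10 h value lay below every other array of the time course. Klf9 fell by 1.07 ± 0.24 (adjusted p = 0.0368) and was called in 1 of 3 probe sets, which ranged from -1.76 to -1.07. The count was 1 without vehicle replicate 2 or 3 or 10 h replicate 2, 3 or 4, 2 without 10 h replicate 1, and 5 without vehicle replicate 1. Igfbp1, Tat and Pck1, which the same hormone and fasting raise, differed by -1.59 (adjusted p = 0.0617), -1.15 (adjusted p = 0.136) and -0.76 (adjusted p = 0.457). Dusp1, also of this list, differed by 1.56 (adjusted p = 0.158).

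Because the groups may have been killed at different hours of the day, the clock genes were examined. Of 19 core clock genes 0 were called by limma, and the median was -0.21. An unadjusted limma p under 0.05 was reached by 5 of the 19, beside 1612 of all 13662 named genes. Those with the lowest p included Nr1d1, a repressor, at -2.86 ± 0.77 (adjusted p = 0.107), Dbp, an output activator, at -2.26 ± 0.67 (adjusted p = 0.158), and the repressor Cry1 at 1.40 ± 0.42 (adjusted p = 0.164), all named after their values were seen. Nr1d1 measured 0.18, 0.10, -1.36 and -4.49 at 10 h against 1.86, -0.39 and 2.93, so the groups overlapped through vehicle replicate 2. It was called without vehicle replicate 2 and without 10 h replicate 1, but not without any other single array, and was -1.82 without 10 h replicate 4. The activators Clock and Bmal1 differed by 0.08 and 0.07. Under quantile normalization 1 core clock gene was called, Cry1, which was higher. Clock output genes held 2 calls of 18, Mfsd2a lower and Avpr1a higher, beside 0.695% of all named genes called. Their median was -0.24. Of the 18, 3 were called without vehicle replicate 2 and 1 without any other single array. Whether the hour of killing had a part in any difference was not tested.

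The remaining large falls had no common list. Hsd17b2, which inactivates estradiol and testosterone, measured 4.17, 3.74, 4.19 and 3.80 against 5.15, 4.85 and 7.25 and fell by 1.78 ± 0.34 (adjusted p = 0.00832), or by 1.03 (adjusted p = 0.165) without vehicle replicate 3. Tp53inp2, a factor of autophagy, measured 3.78, 3.58, 3.00 and 3.09 against 5.08, 5.11 and 5.08 and fell by 1.72 ± 0.23 (adjusted p = 0.000167); its second probe set differed by -0.29. The vehicle arrays agreed closely for this gene and every 10 h array lay below them. Dido1 had the second largest difference of the falls, -4.17 ± 0.83 (adjusted p = 0.0113), in 1 of 3 probe sets, and the mean over its probe sets differed by -2.18 and was not called. Myorg, a glycosidase, was called in 1 of 4 probe sets (-1.56), which ranged up to 0.95, and its mean differed by -0.26.

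Other large falls were those of Clec14a, an endothelial lectin (-2.04), Rapgef4, an exchange factor activated by cyclic AMP (-1.97), the tight junction gene Cldn3 (-1.87), the mitochondrial carrier Slc25a30 (-1.65), Mgat2, which builds N-glycans (-1.60), the fatty acid-binding protein Fabp7 (-1.58) and the glutathione transferase Gstp1 (-1.58). Of these, Mgat2 alone stayed called without vehicle replicate 3. Slc25a30 was not called without 10 h replicate 1, 2 or 4 or vehicle replicate 2 either, nor Gstp1 without 10 h replicate 2 or 3 or vehicle replicate 2. The second Slc25a30 probe set differed by -1.55 and was not called.

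Marker sums were compared for the cell types that whole liver holds. Over 6 B cell markers, of which 1 (Cd74) was called lower, the summed linear signal was 38.4 to 46.9 times the array median in the vehicle livers and 18.5 to 22.9 at 10 h, without overlap. Cd74, the invariant chain of MHC class II, which Kupffer cells also carry, lay at 5.20 against 4.12 and supplied most of this sum. Its call (-1.07 ± 0.25, adjusted p = 0.0465) was lost under quantile normalization and without any single array other than vehicle replicate 1. The defining B cell genes Ms4a1 and Cd79b lay below the array median in both groups. The sum over 11 Kupffer cell and macrophage markers was 167.8 to 222.1 against 115.1 to 173.8, and overlapped, with a median difference of -0.53. Of these 11, 0 were called by limma and 5 had an unadjusted limma p under 0.05, beside 1612 of all 13662 named genes. The sum over 4 erythroid markers did not overlap, at 97.9 to 121.4 against 69.5 to 97.7, with 0 called. The sum over 10 hepatocyte markers overlapped, at 3572 to 4714 against 3624 to 4574, with a median difference of 0.02. For 13 sinusoidal endothelial markers the sums overlapped, with a median difference of -0.46. Of these 13, 0 were called and 7 had an unadjusted limma p under 0.05, and 2 were called higher under quantile normalization. Sums of stellate cell, cholangiocyte, T and NK cell, neutrophil and pancreatic acinar markers also overlapped. In whole liver, fewer cells of a type and less RNA per cell cannot be told apart, and the part of these markers in the results was not tested.

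**Figure D4:**
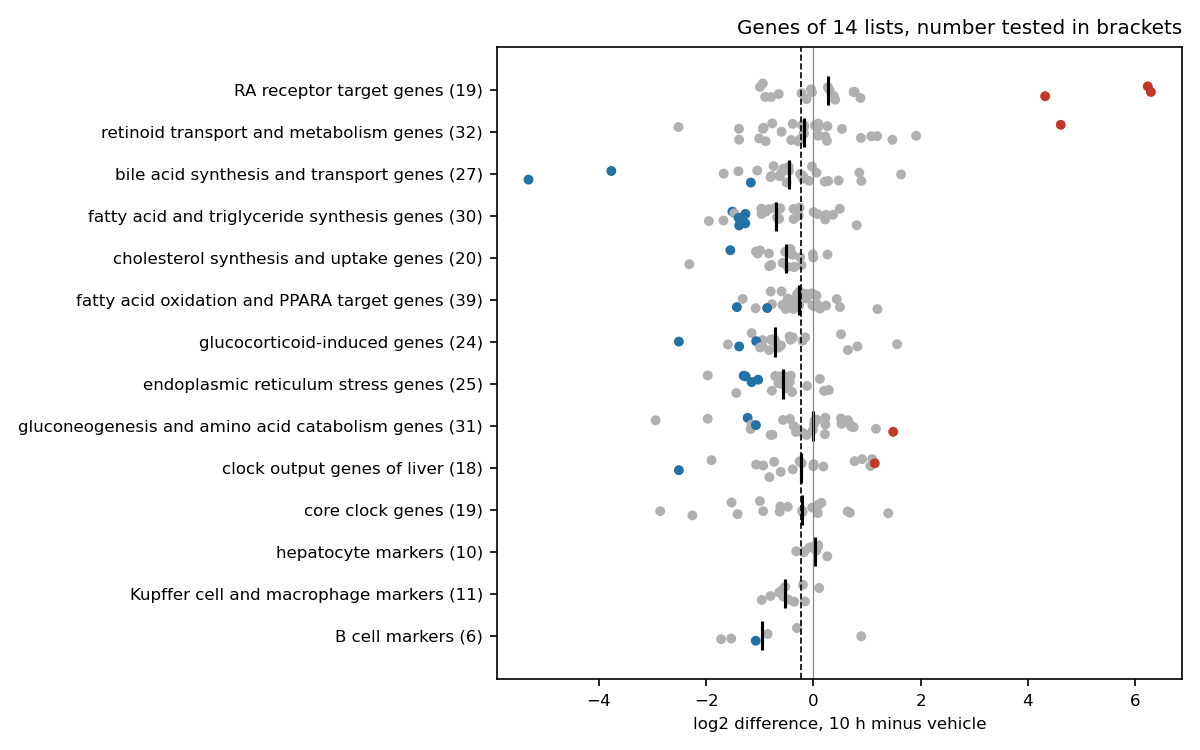
Each point is 1 gene of the list named at the left, with the number tested in brackets, and the horizontal axis gives its log2 difference of 10 h minus vehicle; red points were called higher, blue called lower and grey not called, black bars are list medians and the dashed line is the median of all genes. The 2 lowest points among bile acid genes are Cyp8b1 and Cyp7a1, and the 3 red points among RA receptor targets are Cyp26a1, Cyp26b1 and Lrat.

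Set against the other times of the course, which share no arrays with the 10 h group, the 10 h livers held more calls in falls than in rises against 3 h and 6 h, and more in rises against 16 h. Calls against 3 h numbered 132 of 28869 probe sets (0.457%), with 5 higher (0.0173%) and 127 lower (0.44%), and 91 of the named genes (0.666%). Against 6 h there were 39 calls (0.135%), with 11 higher (0.0381%) and 28 lower (0.097%), and 29 of the named genes (0.212%). Against 16 h there were 233 calls (0.807%), with 206 higher (0.714%) and 27 lower (0.0935%), and 150 of the named genes (1.1%). Under quantile normalization the calls were 38 higher and 65 lower against 3 h, 40 and 47 against 6 h, and 174 and 82 against 16 h. The counts also moved with single arrays. Against 3 h the count was 47, 54 and 62 without 3 h replicates 1, 2 and 3 and 77, 84 and 74 without 10 h replicates 2, 3 and 4. Against 6 h it was 22 and 19 without 10 h replicates 3 and 4 and 17 and 19 without 6 h replicates 1 and 3. Against 16 h it was 76, 101, 135 and 114 without 10 h replicates 1 to 4, 120 without 16 h replicate 1 and 2359 without 16 h replicate 3, the array of that group that lay closest to the rest.

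Cyp8b1 was lower at 10 h than at every other time, by -4.46, -3.14 and -3.64 against 3, 6 and 16 h (adjusted p = 7.81e-09, 2.03e-05 and 1.03e-06). The same held for Mfsd2a (-2.07, -1.56 and -1.47), Thrsp (-2.24, -2.24 and -2.52) and Hsd17b2 (-1.76, -2.53 and -2.78). Leaving out single arrays ended the Mfsd2a call against 6 h for 10 h replicate 2, 3 or 4 and each 6 h array, and against 16 h for 10 h replicate 2. It ended the Hsd17b2 call against 3 h for 3 h replicate 1 or 3. Hamp was lower at 10 h than at 3 h and 6 h, by -1.76 and -1.83 (adjusted p = 0.000256 and 0.000121), and differed by -0.05 from 16 h.

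Nr0b2, the repressor that bile acid receptors induce, showed a change over time that the vehicle comparison did not. It measured 1.66, 2.06, 1.21 and 1.64 at 10 h, 4.65 to 5.25 at 3 h and 4.32 to 5.50 at 6 h, a difference of -3.31 ± 0.39 from 3 h and -3.39 ± 0.39 from 6 h (adjusted p = 3.42e-05 and 2.03e-05). Vehicle arrays lay at 1.10, 3.48 and 2.23, and the 10 h difference from them was -0.63 and not called. Cyp7a1 was lower at 10 h than at 16 h by -6.02 ± 0.82 (adjusted p = 0.000141), with 16 h arrays at 4.12 to 5.03. Pnpla3, a lipase of fat droplets, and Gadd45a, a stress-induced regulator, were lower at 10 h than at 3 h by -3.31 and -2.44 (adjusted p = 0.000473 and 0.000358).

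Rarb was lower at 10 h than at 3 h by -1.37 ± 0.27 (adjusted p = 0.0111), from 5.26 to 5.71 at 3 h; the call was lost without 3 h replicate 1 or 2 or 10 h replicate 2 or 3. Cyp26a1 lay at 3.50 to 4.60 at 3 h, where the 10 h range enclosed it, and differed at 10 h by -2.38 from 6 h (adjusted p = 0.553) and by 3.43 from 16 h (adjusted p = 0.057), neither called. Cyp26b1 and Dhrs3 were higher at 10 h than at 16 h, by 3.39 ± 0.74 (adjusted p = 0.02) and 1.12 ± 0.23 (adjusted p = 0.0153). The Cyp26b1 call was lost without 10 h replicate 1, 2 or 4 or 16 h replicate 1 or 2, and the Dhrs3 call without 10 h replicate 1 or 2 or 16 h replicate 1. Rab38, RGD1309362, Gnmt and Eci3 were higher at 10 h than at 3 h, by 1.84, 1.51, 1.31 and 1.07, and each call was lost on leaving out at least 3 of the 7 arrays in turn.

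Against 6 h the largest rises were Mycl (4.05), Smyd3 (3.62), Nrep (2.26), Angptl4, a lipase inhibitor (1.82), and Inhba, an activin subunit (1.43). For Mycl and Smyd3 the 6 h livers lay far below all others, at -3.61 to -3.30 and -4.26 to -1.41, while 10 h and vehicle livers overlapped. Sds, a serine-degrading enzyme, was lower at 10 h than at 6 h by -2.24 ± 0.43 (adjusted p = 0.0145). Against 16 h the largest rises were Nedd1 (5.20), the decoy receptor Ackr3 (4.41), Dnmt1 (4.15), Zdhhc13 (3.99) and Rb1 (3.58). All 16 h arrays lay below the array median for the first 4, while for Rb1 only 16 h replicate 1 did, and without it the difference was 1.70. The largest falls were Cyp7a1, Igfbpl1 (-4.93), H2bc1 (-4.24), Dido1 (-4.03) and Dbp (-3.82), and Igfbpl1 and H2bc1 reached no more than 0.75 and 0.52 in any array, near or below the array median.

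The diet experiment varied long-term supply in other rats, with 6 livers from an adequate diet against 5 from a deficient one. Of the 95 genes called at 10 h, 15 (15.8%) were called there too, against 1.58% of all 13047 genes tested in both experiments, and they made up 7.28% of the 206 diet calls. The direction was the same for 14 of the 15. All 19 genes called higher at 10 h were also higher on the adequate diet, 12 of them called. Of the 76 called lower, 45 were lower there, 2 of them called (Fabp7 and the phospholipase Pla2g12a). Over all genes 42.0% had the same sign, a share that was not split by direction. It therefore gives no background for the rises or the falls taken alone, and these were not compared. Across probe sets the diet comparison gave 299 calls (1.08%), 277 higher (1%) and 22 lower (0.0797%), or 219 and 119 under quantile normalization; the count was 1489, 175 and 193 without deficient replicates 4, 5 and 1, and 161 and 156 without adequate replicates 1 and 2.

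Cyp2c22 and Sult1c3 rose with diet by 4.57 ± 0.29 and 4.80 ± 0.55 (adjusted p = 6.54e-12 and 2.12e-06), beside 4.61 and 4.81 at 10 h. Rpp21, Rab38 and Adss1 rose with diet by 2.18, 1.96 and 2.14, beside 1.73, 1.69 and 2.31 at 10 h. Cyp26a1 rose with diet by 1.94 ± 0.46 (adjusted p = 0.0255), beside 6.29 at 10 h. Whether the sizes differ between the experiments was not tested. Fabp7 was lower in both, by -1.21 with diet and -1.58 at 10 h. Rarb, not called at 10 h, was higher on the adequate diet by 1.28 (adjusted p = 0.00303). Me1 went the other way, higher on the adequate diet by 1.34 ± 0.30 (adjusted p = 0.0146) and lower at 10 h. Cyp8b1, the largest fall at 10 h, was at 6.13 ± 0.46 (SD, n = 6) on the adequate and 6.81 ± 0.29 (SD, n = 5) on the deficient diet, above all 10 h livers on both.

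**Figure D5:**
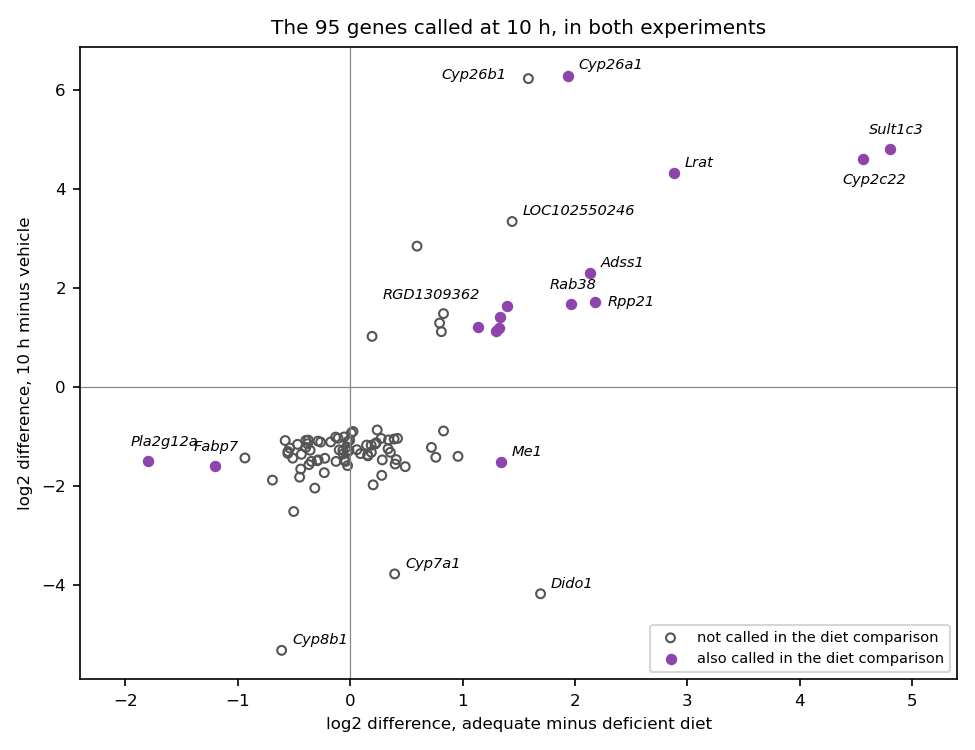
Each point is 1 of the 95 genes called at 10 h; the horizontal axis gives the log2 difference of adequate minus deficient diet and the vertical axis that of 10 h minus vehicle, with filled points also called in the diet experiment. All 19 genes above 0 on the vertical axis lie to the right of 0, while those below it spread to both sides.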

How the data were processed

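The deposited table holds log2 signals of single-colour Affymetrix arrays; per the submitters' processing notes the signals came from GCOS, whose version is not given in the sources used here. Each array's log2 values are centred on a median of 0 and share 1 lowest value; how the authors set these is not given. Of 31099 probe sets, 57 controls were left out; 20826 others had 1 gene, 436 several and 9780 none, and 20758 Entrez numbers matched RefSeq.

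A probe set was kept where 2 or more of the 16 time-course arrays had it above their 40th percentile; group means were fitted in limma 3.58.1 (R 4.3.3) with an intensity trend in the variance, and p-values were adjusted over all 28869 by Benjamini-Hochberg. The diet fit used 20 arrays with the array run as a covariate. The 2 runs were inferred from the array identifiers in the titles, which do not name a run. The fit was also run on simulated data of independent normal values without array effects. That setting is simpler than these arrays, so no result here rests on it. A gene is represented by its tested probe set of highest mean.

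Named genes were the 15 largest called rises and falls, called members of gene lists and 7 retinoid genes, plus 9 named after their values were seen (Fdps, Fads1, Slc2a2, Slc37a4, Cd74, Igfbp1, Nr1d1, Dbp and Cry1); for other times, the 5 largest called rises and falls. Other list members are given as values and were likewise chosen with their values known. The members, lists and comparisons were chosen with earlier results of these data known. Each array is 1 rat, but the SE and p-values of the time course do not rest on the compared rats alone. The spread was pooled over all 16 arrays, with 11 residual degrees of freedom. It was then moderated toward probe sets of similar signal, with 18.4 prior degrees of freedom. Where vehicle rats scattered widely, the SE can be small beside that scatter: for Lrat the vehicle SD was 3.41 and the SE 0.77. Alternatives were quantile normalization, no filter, no trend, arrayWeights, only the groups compared, a replicate block, a 2-fold limit, the mean over probe sets and leaving out each array; 2 more, an offset of 0.25 and a fit without 16 h replicates 1 and 2, were added once the data had been seen.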

Additional observations from a re-analysis of the deposited data

Results flagged for a closer look

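Among the 58 named genes, 52 differences between 10 h and another time after RA passed the limma test of the difference itself, all as log2 values of 10 h minus that time. Against 3 h the rises were Rab38 (1.84), RGD1309362 (1.51), Gnmt (1.31) and Eci3 (1.07), and the falls were Rarb (-1.37), Cyp8b1 (-4.46), Dido1 (-4.07), Mfsd2a (-2.07), Clec14a (-1.59), Rapgef4 (-1.79), Hamp (-1.76), Hsd17b2 (-1.76), Tp53inp2 (-1.85), Mgat2 (-1.22), Fabp7 (-1.33), Abcc2 (-1.26), Edem1 (-1.34), Me1 (-1.83), Thrsp (-2.24), Elovl2 (-1.64), Fads2 (-1.43), Got1 (-1.38), Fdps (-1.33), Fads1 (-1.42), Slc2a2 (-1.38) and Slc37a4 (-1.43). Against 6 h the falls were Cyp8b1 (-3.14), Mfsd2a (-1.56), Hamp (-1.83), Hsd17b2 (-2.53), Mgat2 (-1.16), Thrsp (-2.24), Elovl2 (-1.48), Cpt1a (-1.52), Asl (-1.18), Fads1 (-1.11) and Igfbp1 (-2.04). Against 16 h the rises were Cyp26b1 (3.39), Dhrs3 (1.12), RGD1309362 (1.38), Lcmt1 (1.08), Avpr1a (1.48) and Cry1 (2.04), and the falls were Cyp8b1 (-3.64), Dido1 (-4.03), Cyp7a1 (-6.02), Mfsd2a (-1.47), Hsd17b2 (-2.78), Herpud1 (-1.08), Thrsp (-2.52), Nr1d1 (-3.71) and Dbp (-3.82). The same 10 h arrays enter all 3 comparisons. They also chose most of the 58 genes, through the comparison with vehicle, so the count of 52 is not independent of that choice. Of all 13662 named genes, 0.666% were called against 3 h, 0.212% against 6 h and 1.1% against 16 h.

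In 6 of the 58 genes, 1 of the 4 livers at 10 h lay far from the others by Dixon's test, which chance reaches in about 1 in 20 groups. They were Sult1c3, low in replicate 1 (1.57), Gnmt, high in replicate 2 (7.86), Herpud1, low in replicate 2 (3.38), Hsp90b1, high in replicate 1 (5.74), Lpin1, high in replicate 1 (2.58), and Slc2a2, high in replicate 1 (5.87). The cause was not tested.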

How the results depend on the processing

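No named gene reversed its direction under any alternative run, and Cyp8b1 was the 1 gene called under all 16. Counts of calls moved more, for causes that were not tested. The number of probe sets called against vehicle was 290 with quantile normalization, 2 without the trend, 1296 with arrayWeights, 261 with only the arrays of both groups, 452 without 16 h replicates 1 and 2, and 19 to 378 when single arrays were left out. Against 3 h it was 1 without the trend, 703 with arrayWeights, 1129 with only both groups, 466 without those 16 h arrays, and 47 to 189 when single arrays were left out. Against 6 h it was 87 with quantile normalization, 6 without the trend, 140 with arrayWeights, 267 with only both groups, 129 without those 16 h arrays, and 17 to 44 when single arrays were left out. Against 16 h it was 45 without the trend, 127 with only both groups, and 76 to 2359 when single arrays were left out. The diet count was 64 without the trend, 167 without the covariate for the inferred run, 61 in inferred run 1 alone, and 156 to 1489 when single arrays were left out.

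Replicate numbers did not pair the arrays: the correlation of same-numbered deviations ran from -0.038 to 0.054, with 0 of 30 pairs above 0.1. With the replicate number as a block, the counts were 72 against vehicle, 74 against 3 h, 23 against 6 h and 96 against 16 h.

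Group sizes of 3 and 4, and wide scatter between vehicle rats, limit the precision of the largest rises. In some of these rises, vehicle signals of single rats also lay near the lowest value of the array. No vehicle rats were killed at 10 h.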
